A study of Homo sapiens with 6 samples.

Results

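The expression of 38 genes of homologous recombination and Fanconi repair was examined in the human large cell lung cancer line H661 after knockdown of the transcription factor SALL4. The list follows the known roles of the genes in repair. No level on these arrays enters the choice of genes, but the list was chosen with earlier results of these data known. Cells carrying a SALL4-specific short hairpin RNA (SALL4-sh, 3 arrays) were compared with cells carrying a scrambled hairpin (Scr-sh, 3 arrays). Both hairpins had been delivered by lentivirus, so the Scr-sh cells had met virus and hairpin as well. The data come from 1 cell line and 1 SALL4 hairpin. The labels and methods do not state whether the replicates were separate cultures, so p-values measure the spread between these arrays, which may be technical. Of the 38 genes, 33 had a probe set assigned to that gene alone, out of 18404 genes in all, and each of the 33 had a single such probe set. BRCA2, FANCD2, FANCA, RBBP8 and RAD51D were not analysed here, RAD51D because its probe set is shared with a read-through gene.

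Homologous recombination mends a broken chromosome by copying the intact sister chromatid. The ends are first recognised by the MRE11-RAD50-NBN complex and the kinase ATM and are then trimmed. The kinase ATR acts at the exposed single strand, and BRCA1 and PALB2 help to prepare that strand for pairing with the sister. The Fanconi proteins detect crosslinks that tie both DNA strands together at stalled replication forks, and they hand the opened lesion to the same recombination enzymes. Many of these genes are inherited cancer genes, and loss of some of them, BRCA1 and BRCA2 included, makes tumor cells sensitive to platinum drugs and PARP inhibitors.

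The knockdown was visible in each array. SALL4 had normalized intensities of 33.6, 31.9 and 26.5 in SALL4-sh and 126, 104 and 130.2 in Scr-sh, a log2 fold change of -1.97 (SE 0.17, adjusted p = 0.000644). The deposited intensity is on a linear scale with a floor, so that every value below 8 stands at exactly 8. The 4601 dimmest genes were left out of the test, since 3893 genes had the floor value throughout and so no spread, and 13803 genes were tested. Of the repair genes, 32 passed this filter. FANCF, which encodes an adaptor inside the Fanconi core complex, stood at 8 on all 6 arrays and was not tested. Among the 5 markers of carcinoma epithelium EPCAM was bright, at 843 to 1113 in SALL4-sh and 590 to 898 in Scr-sh, whereas KRT8 lay close to the floor in both groups, at 8 to 11.1 in SALL4-sh and 8 to 9.76 in Scr-sh. CDH1 was dim and rose, at 16.1 to 17.3 in SALL4-sh and 8 to 10.5 in Scr-sh (log2 fold change 0.91). KRT18 (log2 fold change -0.44) and KRT19 (-0.11) had fold changes below 0. The summed intensity of the list, most of it from EPCAM, was 911 to 1192 in SALL4-sh and 666 to 1001 in Scr-sh. Of the 6 leukocyte markers measured, PTPRC, CD3E and LYZ stood at 8 on all arrays. CD68 was the brightest of the 6, at 30.5 to 35.4 in SALL4-sh and 34.0 to 71.6 in Scr-sh (log2 fold change -0.75). The summed intensity of the 6 was 72.6 to 76.2 in SALL4-sh and 76.0 to 112 in Scr-sh. Of the 6 fibroblast markers, DCN stood at 8 on all arrays and COL1A2 (log2 fold change -0.79) and THY1 (-0.76) fell in SALL4-sh, and the summed intensity of the 6 was 246 to 296 in SALL4-sh and 396 to 443 in Scr-sh. The part of these markers in the results below was not tested. All 6 samples were the line H661, so these markers were read in cells of 1 line. RNA of whole cultures was measured, so a change in all cells and a change in some of them cannot be told apart.

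Of the 32 repair genes tested, 2 rose and 2 fell at an adjusted p under 0.05 (limma with Benjamini-Hochberg adjustment over all genes tested). BRIP1, a helicase that binds BRCA1, and FANCM, the translocase that anchors the Fanconi core complex on DNA, rose. CHEK2, the checkpoint kinase activated by ATM, and MDC1, the scaffold that binds phosphorylated histone H2AX beside a break, fell. These 4 genes were 12.5% of the genes tested in the group, and 11.5% of all genes were called (1585 of 13803), so the share of changed repair genes lay close to that of the transcriptome. At an unadjusted p under 0.05 stood 10 repair genes, 6 higher and 4 lower, and 24.7% of all genes. By direction, 5.95% of all genes were called higher and 5.54% lower. The log2 fold changes of the 32 genes ran from -1.50 to 1.90, with a median of 0.16 (18 above 0 and 14 below), against a median of 0.02 for all genes tested. In 9 of the 32 genes the arrays of both groups did not overlap, 6 with SALL4-sh above and 3 with SALL4-sh below, and 28.9% of all genes tested had groups apart in this way (15.7% above and 13.1% below). With no filter on dim genes, 0 of the 33 repair genes passed the adjusted threshold of limma (8 had an unadjusted p under 0.05, as did 17.4% of all genes), where 2.51% of all genes did (1.18% higher and 1.33% lower).

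**Figure D1:**
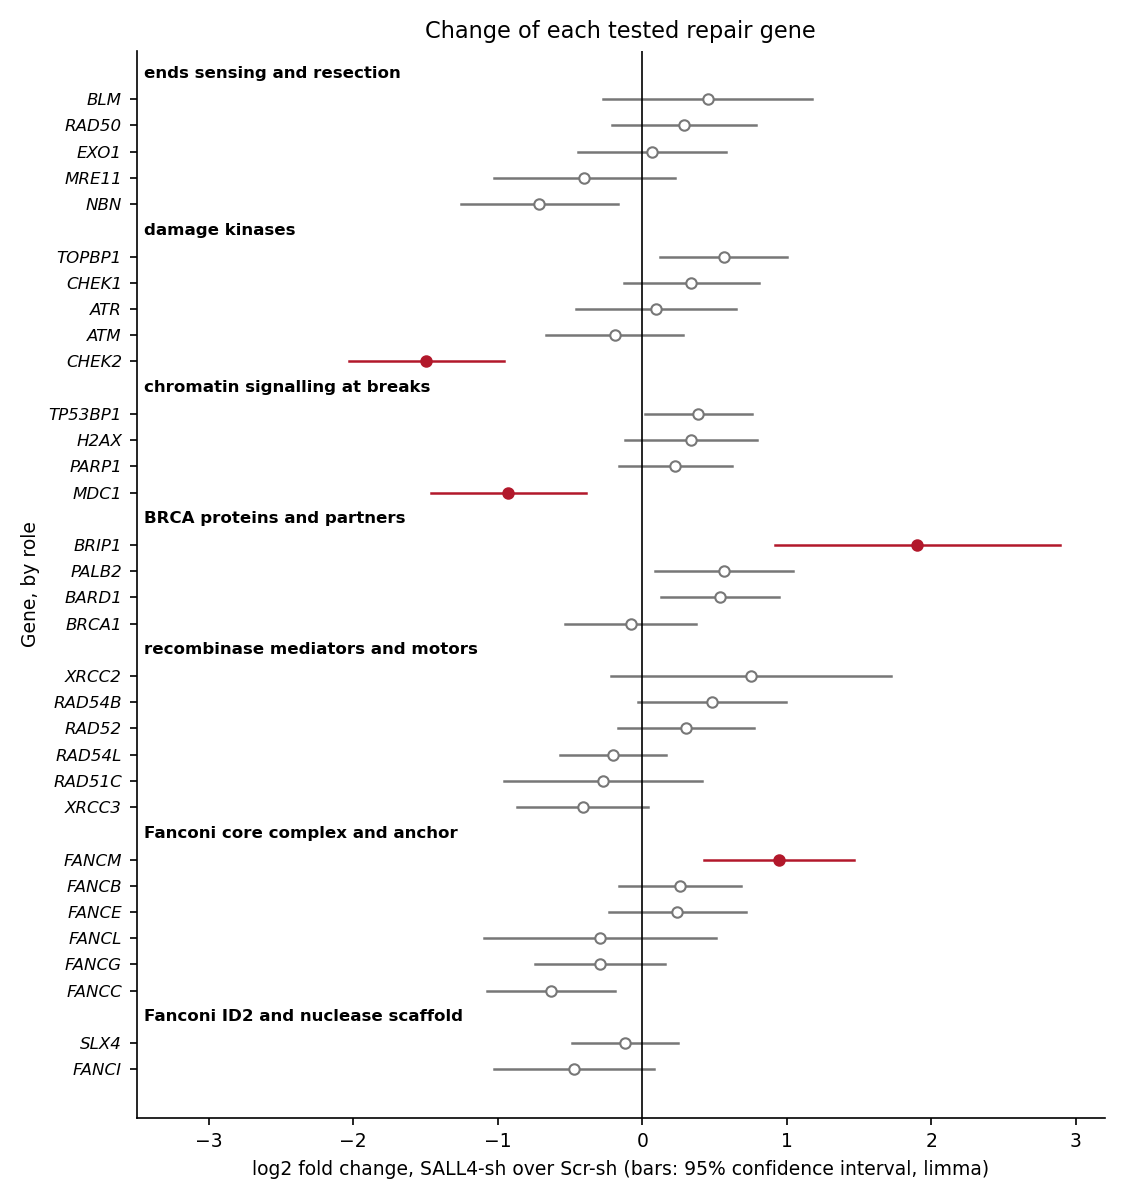
SALL4-sh minus Scr-sh difference in log2 intensity for the 32 repair genes tested, ordered by role, with 95% confidence intervals from limma (n = 3 arrays per group). Filled points passed an adjusted p of 0.05, and these were BRIP1 (1.90) and FANCM (0.94) above 0 and CHEK2 (-1.50) and MDC1 (-0.93) below 0.

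The promoters of the 4 changed genes are shown because both directions of change occurred among genes with the same promoter element. They are RefSeq sequences (GRCh38.p14) from 250 bases before the start site to 50 after it, 5' to 3' on the gene's strand. Capitals mark the CCAAT box, to which the factor NF-Y binds, written CCAAT on the strand shown and ATTGG where it lies on the opposite strand.
BRIP1, chr17:61863479-61863778, strand -: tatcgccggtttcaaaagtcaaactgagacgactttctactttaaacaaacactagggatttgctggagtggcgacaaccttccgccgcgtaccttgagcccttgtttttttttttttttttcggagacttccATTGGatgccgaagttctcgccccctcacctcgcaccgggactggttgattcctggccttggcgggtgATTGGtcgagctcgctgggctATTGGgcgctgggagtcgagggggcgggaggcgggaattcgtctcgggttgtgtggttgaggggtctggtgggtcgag
FANCM, chr14:45135680-45135979, strand +: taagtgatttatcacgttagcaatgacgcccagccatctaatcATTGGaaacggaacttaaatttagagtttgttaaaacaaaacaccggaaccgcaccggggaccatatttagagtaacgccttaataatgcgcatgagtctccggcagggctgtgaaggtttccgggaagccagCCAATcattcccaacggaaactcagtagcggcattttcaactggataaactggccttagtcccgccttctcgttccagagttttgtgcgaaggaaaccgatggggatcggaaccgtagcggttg
CHEK2, chr22:28741771-28742070, strand -: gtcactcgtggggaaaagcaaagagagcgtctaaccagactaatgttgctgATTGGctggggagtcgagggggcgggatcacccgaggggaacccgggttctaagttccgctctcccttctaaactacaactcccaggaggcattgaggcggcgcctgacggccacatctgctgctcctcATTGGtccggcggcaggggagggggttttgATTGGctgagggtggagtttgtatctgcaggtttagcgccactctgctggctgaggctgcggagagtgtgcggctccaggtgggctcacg
MDC1, chr6:30717232-30717531, strand -: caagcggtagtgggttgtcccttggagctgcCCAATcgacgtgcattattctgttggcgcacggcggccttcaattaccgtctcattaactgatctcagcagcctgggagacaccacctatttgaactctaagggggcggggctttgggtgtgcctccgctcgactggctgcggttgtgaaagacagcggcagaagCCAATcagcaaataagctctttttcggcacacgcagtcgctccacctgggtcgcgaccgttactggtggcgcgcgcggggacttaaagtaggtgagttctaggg
BRIP1 and CHEK2 held 3 CCAAT boxes each, and FANCM and MDC1 held 2 each. Of the 33 measured repair genes 30 had an entry in the promoter table, and 14 of them (46.7%) held a CCAAT box on either strand, as did 36.4% of 15843 promoters of protein-coding genes. Where a gene had more than 1 entry, as BRCA1 with 2 and CHEK1 with 3, only the first entry was searched. The E2F motif, searched on both strands as TTTCCCGC, TTTCGCGC, TTTGCCGC and TTTGGCGC, was in 4 of the 30 promoters (13.3%), namely EXO1, FANCC, TOPBP1 and XRCC2, and in 4.4% of all. The cell cycle element CHR, searched on both strands as TTTGAA and TTCGAA, was in 5 of the 30 (16.7%) and in 13.5% of all. Of the 4 printed promoters none held the E2F letters, and BRIP1 and MDC1 held 1 CHR element each, which is not marked. A match describes the letters of this window only.

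Of BRCA1 and its 3 measured partners, only BRIP1 passed the threshold. BRCA1, the ubiquitin ligase and scaffold that favors end trimming, had 23.9, 26.4 and 25.3 in SALL4-sh and 30.6, 31.0 and 19.9 in Scr-sh. The groups overlapped, and the ratio of SALL4-sh to Scr-sh was 0.946 (95% confidence interval 0.691 to 1.30, adjusted p = 0.863). BRIP1 had 86.6, 124 and 124 in SALL4-sh and 13.1, 53.7 and 36.3 in Scr-sh. All SALL4-sh values lay above all Scr-sh values, and the log2 fold change was 1.90 (SE 0.44, adjusted p = 0.0239), the largest increase among the repair genes. BRIP1 averaged 112 ± 21.7 in SALL4-sh and 34.4 ± 20.4 in Scr-sh (SD, n = 3 each), a wide spread for the controls. It missed the threshold without Scr-sh replicate 3 (adjusted p = 0.0812) or without any 1 of the SALL4-sh arrays (adjusted p = 0.0715 to 0.161). In those fits 3.56% to 5.19% of all genes were called, against 11.5% with no array left out. BARD1, which pairs with BRCA1 in the ligase, had 48.7, 49.8 and 53.9 in SALL4-sh and 30.1, 43.4 and 32.6 in Scr-sh. PALB2, which links BRCA1 to BRCA2, had 51.2, 47.4 and 69.9 in SALL4-sh and 34.2, 46.6 and 32.8 in Scr-sh. For both genes the groups did not overlap and the threshold was missed, with log2 fold changes of 0.54 for BARD1 (95% confidence interval 0.13 to 0.95, adjusted p = 0.0939) and 0.56 for PALB2 (0.09 to 1.04, adjusted p = 0.127). An exact two-sided permutation test over the 20 labelings of 6 arrays gave p = 0.1 for each gene of groups that did not overlap, the smallest p that 3 against 3 allow.

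**Figure D2:**
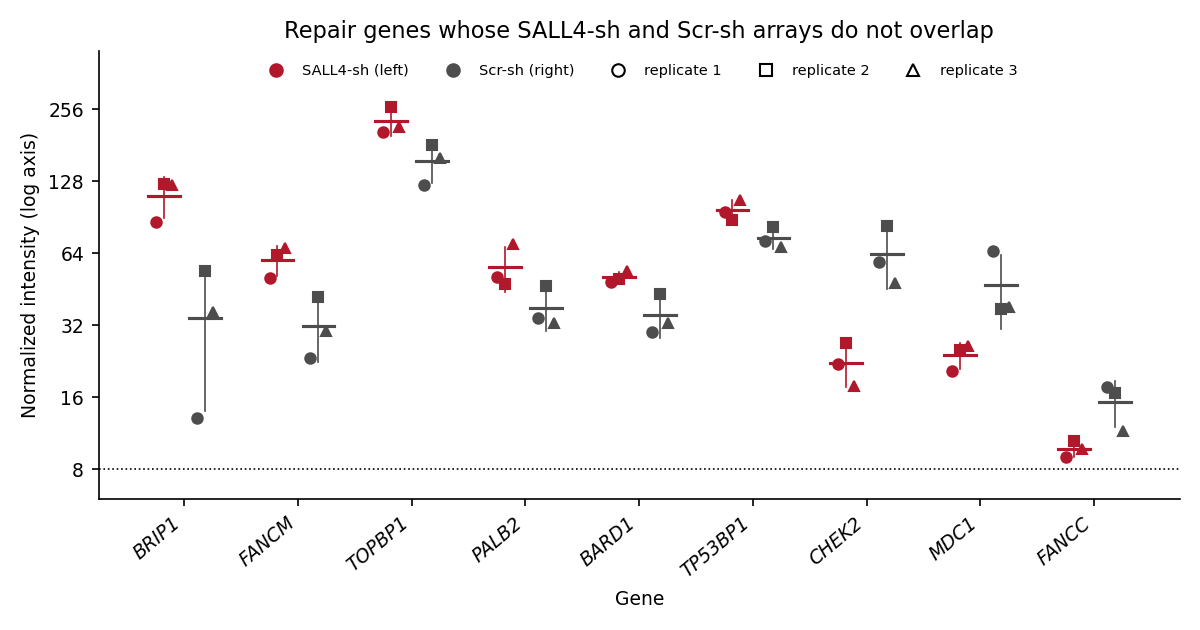
Normalized intensity (log axis) of the 9 repair genes whose groups did not overlap, with SALL4-sh arrays on the left of each gene and Scr-sh arrays on the right. Points are single arrays with a symbol per replicate number, bars and whiskers are mean and SD (n = 3), and a dotted line marks the floor (8). BRIP1 averaged 112 in SALL4-sh and 34.4 in Scr-sh, and CHEK2 22.3 and 63.6.

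Among the kinases of the damage response only CHEK2 passed the threshold. CHEK2 had 22.0, 27.0 and 17.9 in SALL4-sh and 59.0, 83.6 and 48.1 in Scr-sh. The highest SALL4-sh value lay below the lowest Scr-sh value, and the ratio of SALL4-sh to Scr-sh was 0.355 (95% confidence interval 0.244 to 0.515, log2 fold change -1.50, SE 0.24, adjusted p = 0.00541). CHEK2 passed the threshold also without any 1 of the 6 arrays, which was so of no other repair gene, but not with no filter (adjusted p = 0.0866). ATM, which activates CHEK2 at broken ends, had 62.8, 49.0 and 67.1 in SALL4-sh and 52.7, 82.6 and 70.7 in Scr-sh. These groups overlapped, with a ratio of 0.875 (95% confidence interval 0.629 to 1.22, adjusted p = 0.658). ATR, the kinase of single-stranded DNA and stalled forks, had 29.1, 37.4 and 35.3 in SALL4-sh and 23.5, 45.6 and 29.4 in Scr-sh, a ratio of 1.07 (95% confidence interval 0.729 to 1.57, adjusted p = 0.864). CHEK1, the checkpoint kinase downstream of ATR, had 144, 184 and 174 in SALL4-sh and 122, 172 and 109 in Scr-sh. Its ratio was 1.27 (95% confidence interval 0.916 to 1.75, adjusted p = 0.370), and the highest Scr-sh value lay between the SALL4-sh values. TOPBP1, which switches ATR on, had 205, 263 and 216 in SALL4-sh and 124, 182 and 161 in Scr-sh. Here the groups did not overlap, at a log2 fold change of 0.56 (SE 0.19, adjusted p = 0.101). TOPBP1, TP53BP1, NBN, RAD50, H2AX and other genes outside the rule for named genes were given values after these had been seen.

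Of the 4 genes for signalling on chromatin around a break, only MDC1 passed the threshold. MDC1 had 20.5, 25.3 and 26.1 in SALL4-sh and 65.6, 37.3 and 38.0 in Scr-sh. The groups were apart, with replicate 1 the highest of Scr-sh by a wide margin, and the log2 fold change was -0.93 (SE 0.24, adjusted p = 0.0363). MDC1 missed the threshold without Scr-sh replicate 1 (adjusted p = 0.0795), Scr-sh replicate 3 (0.0762) or any 1 of the SALL4-sh arrays (0.110 to 0.141). In those fits 3.56% to 6.55% of all genes were called, against 11.5% with no array left out. H2AX, the histone variant that MDC1 reads once it is phosphorylated, had 72.8, 86.4 and 103 in SALL4-sh and 80.4, 55.2 and 72.4 in Scr-sh, with overlap and a log2 fold change of 0.34 (SE 0.20, adjusted p = 0.362). TP53BP1, which shields ends from trimming, had 95.5, 87.8 and 107 in SALL4-sh and 71.8, 82.6 and 67.9 in Scr-sh. Its groups were apart at a log2 fold change of 0.39 (95% confidence interval 0.02 to 0.76, adjusted p = 0.182). PARP1, which senses strand breaks and builds poly(ADP-ribose), averaged 136 ± 15.2 in SALL4-sh and 116 ± 15.7 in Scr-sh (SD, n = 3 each), a ratio of 1.17 (95% confidence interval 0.893 to 1.53).

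No gene of end recognition and trimming passed the threshold, and the members of the MRE11-RAD50-NBN complex had fold changes of both signs. NBN, the subunit that recruits ATM, had 51.8, 67.3 and 47.3 in SALL4-sh and 64.8, 117 and 95.3 in Scr-sh. Only replicate 2 of SALL4-sh reached into the Scr-sh range, and the log2 fold change was -0.71 (SE 0.24, adjusted p = 0.0951). NBN passed without Scr-sh replicate 1 (log2 fold change -0.95, adjusted p = 0.0439). RAD50, the coiled-coil ATPase that bridges the ends, had 328, 333 and 329.6 in SALL4-sh and 198, 365 and 275 in Scr-sh, so that the SALL4-sh arrays were nearly equal and lay within the Scr-sh range. MRE11, the nuclease, had 22.9, 38.6 and 40.7 in SALL4-sh and 35.0, 61.2 and 38.6 in Scr-sh. Its groups overlapped, and it averaged 34.1 ± 9.70 in SALL4-sh and 44.9 ± 14.2 in Scr-sh (SD, n = 3 each), a ratio of 0.758 (95% confidence interval 0.491 to 1.17, adjusted p = 0.442). EXO1, an exonuclease of long-range trimming, had a log2 fold change of 0.07, and BLM, a helicase that helps trimming, of 0.45, with overlapping groups in both.

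None of the 6 measured genes of strand pairing and exchange passed the threshold, and in none of them were the groups apart. Their log2 fold changes ran from -0.41 for XRCC3 to 0.75 for XRCC2, which both serve strand exchange. XRCC2 was dim, at 8.22, 29.9 and 18.3 in SALL4-sh and 14.8, 8 and 8 in Scr-sh, and its fold change was limited by the 2 Scr-sh arrays at the floor. RAD51C, another gene of strand exchange, averaged 77.3 ± 24.4 in SALL4-sh and 95.4 ± 38.8 in Scr-sh (SD, n = 3 each). RAD54B, a motor protein that helps strand invasion, stood at 0.48 on the log2 scale (adjusted p = 0.227) and its relative RAD54L, a dim probe set at 9.47 to 11.2 in SALL4-sh and 10.7 to 12.9 in Scr-sh, at -0.20. RAD52, an annealing protein, averaged 26.8 ± 2.46 in SALL4-sh and 22.1 ± 5.95 in Scr-sh (SD, n = 3 each).

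Of the measured genes of the Fanconi core complex, its anchor, the FANCI partnership and the nuclease scaffold, FANCM was the only 1 past the threshold (BRIP1, also known as FANCJ, is given above). FANCM had 50.2, 63.1 and 67.0 in SALL4-sh and 23.4, 42.0 and 30.4 in Scr-sh. All SALL4-sh values were above all Scr-sh values, at a log2 fold change of 0.94 (SE 0.23, adjusted p = 0.0302). It missed the threshold without Scr-sh replicate 1 (adjusted p = 0.0952), Scr-sh replicate 3 (0.115) or any 1 of the SALL4-sh arrays (0.0636 to 0.151). The share of all genes called in those fits was 3.56% to 6.55%, against 11.5% with no array left out. FANCC, a subunit of the core complex, lay near the floor, at 9.03, 10.5 and 9.69 in SALL4-sh and 17.7, 16.7 and 11.6 in Scr-sh. Its groups were apart with SALL4-sh below, and with a log2 fold change of -0.63 (SE 0.20, adjusted p = 0.0726) it was the nearest to the threshold among the repair genes that missed it. It passed without Scr-sh replicate 3 (adjusted p = 0.0431), and with the floor raised to 16 its log2 fold change was -0.07 (adjusted p = 0.679). The other core genes had log2 fold changes of -0.29 (FANCG and FANCL, the ubiquitin ligase subunit), 0.24 (FANCE) and 0.26 (FANCB), each with overlapping groups. FANCI, the partner of FANCD2 that the core complex tags with ubiquitin, had 20.6, 27.2 and 36.9 in SALL4-sh and 39.8, 46.2 and 30.2 in Scr-sh, a log2 fold change of -0.47 (95% confidence interval -1.03 to 0.08, adjusted p = 0.277). SLX4, the scaffold of nucleases that cut at the crosslink, averaged 20.8 ± 1.80 in SALL4-sh and 22.6 ± 2.40 in Scr-sh (SD, n = 3 each), a ratio of 0.921 (95% confidence interval 0.714 to 1.19).

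The repair genes did not lie at 1 level across the Scr-sh arrays. Scr-sh replicate 2 had the highest of the 3 Scr-sh values in 23 of the 32 repair genes (71.9%), against 39.3% of all 13803 genes tested. The median deviation of a repair gene from its own mean over the 6 arrays was 0.20 on the log2 scale on Scr-sh replicate 2, -0.22 on Scr-sh replicate 1 and -0.14 on Scr-sh replicate 3, where the median over all genes was -0.01, -0.01 and -0.04. On the SALL4-sh arrays the medians of the repair genes were -0.03, 0.07 and 0.09 for replicates 1, 2 and 3. Without Scr-sh replicate 2, 3 repair genes rose (BARD1, BRIP1 and FANCM) and 2 fell (CHEK2 and MDC1), where 11.5% of all genes were called, and the median log2 fold change of the 32 was 0.25. Without it BRIP1 had a log2 fold change of 2.34, BARD1 of 0.69 and PALB2 of 0.72. Of 22 S to M phase genes, with all 6 arrays, MCM4 (log2 fold change 0.89) and RRM2 (0.69) rose and CDC20 (-1.35) fell. These were 13.6% of the list, beside 11.5% of all genes, and the median log2 fold change of the 22 was -0.04. In 9 of the 22 the groups did not overlap, 6 with SALL4-sh above and 3 below, beside 28.9% of all genes tested. Whether the list differs from all genes in overlap was not tested. The summed intensity of the 22 was 3199 to 3449 in SALL4-sh and 3362 to 3478 in Scr-sh, and Scr-sh replicate 2 was the highest Scr-sh array in 7 of them. It was also the highest in 39 of 61 other pathway genes, 8 of 13 genes of nucleotide excision repair, 3 of 5 of mismatch repair and 4 of 10 of end joining, and whether the lists differ in this was not tested. The part of the cell cycle in these differences was not tested.

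**Figure D3:**
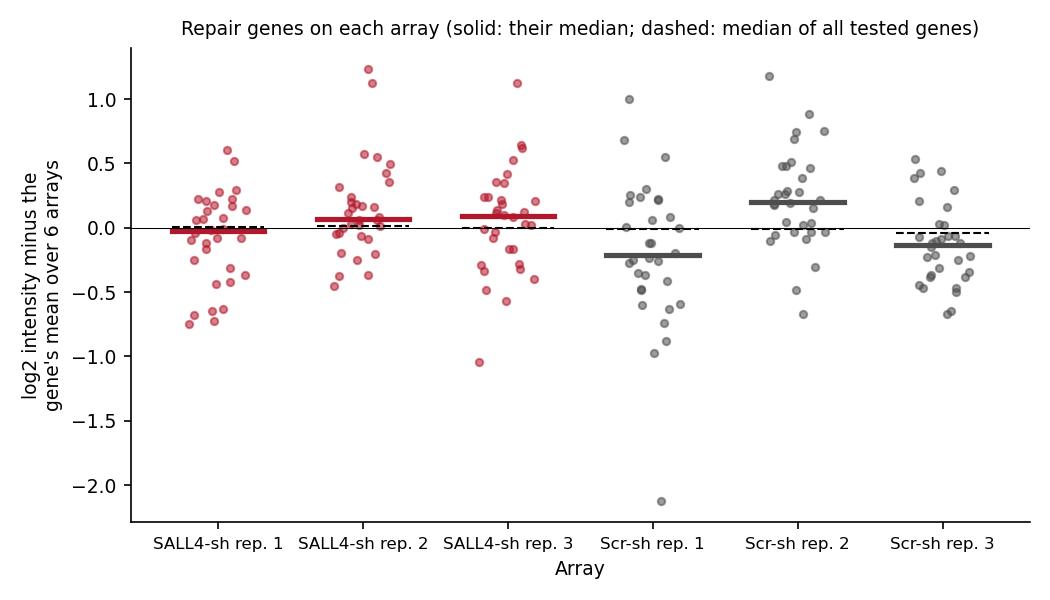
Log2 intensity of each of the 32 repair genes minus its own mean over the 6 arrays, by array, with SALL4-sh arrays on the left. Solid bars are the median of the repair genes and dashed bars that of all 13803 genes tested. The solid bar stands at 0.20 on Scr-sh replicate 2 and at -0.22 and -0.14 on Scr-sh replicates 1 and 3.

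The rest of the pathway was followed with 68 further genes, of which 63 were measured and 60 tested. In SALL4-sh 6 rose and 6 fell, or 20% of those tested, beside the 11.5% of all genes. Their median log2 fold change was 0.17, and with no filter 1 rose and 1 fell. RNF168, the ligase that ubiquitinates histones after MDC1 has called in RNF8, had 135, 164 and 144 in SALL4-sh and 53.6, 74.2 and 66.7 in Scr-sh, a ratio of 2.29 (95% confidence interval 1.73 to 3.03, adjusted p = 0.00416). It rose while MDC1, upstream of it at the break, fell. RIF1, an effector of TP53BP1 that blocks trimming, had 56.3, 56.8 and 63.8 in SALL4-sh and 12.9, 33.7 and 19.8 in Scr-sh, a log2 fold change of 1.52 (SE 0.30, adjusted p = 0.0135). SHLD2, a subunit of the shieldin complex downstream of RIF1, also rose, by 0.58 on the log2 scale (adjusted p = 0.0487). Of their neighbours, RNF8 (log2 fold change 0.50, adjusted p = 0.167) and the shieldin partner MAD2L2 (0.49, adjusted p = 0.0986) missed the threshold, and the shieldin subunit SHLD1 was too dim to be tested.

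The subunits of the complex that brings BRCA1 to ubiquitinated chromatin fell in 3 of 5 cases, where 5.54% of all genes tested were called lower. A group formed after its values were seen, as here, cannot be weighed against that share. ABRAXAS1, which binds BRCA1 directly, had 8.66, 8 and 8 in SALL4-sh and 20.1, 21.1 and 18.3 in Scr-sh. The log2 fold change of -1.27 (SE 0.15, adjusted p = 0.00190) was limited by the 2 SALL4-sh arrays at the floor. BABAM1, a scaffold subunit, had 25.4, 27.8 and 39.3 in SALL4-sh and 70.6, 66.2 and 82.2 in Scr-sh, a log2 fold change of -1.26 (SE 0.20, adjusted p = 0.00539). BABAM2, another scaffold subunit, had 52.3, 40.5 and 37.9 in SALL4-sh and 118, 67.9 and 73.4 in Scr-sh, a log2 fold change of -0.96 (SE 0.24, adjusted p = 0.0313). The log2 fold change was -0.69 for the ubiquitin-binding subunit UIMC1 (adjusted p = 0.108, groups overlapping) and 0.45 for the deubiquitinase BRCC3 (adjusted p = 0.151, groups apart), and neither passed. These 5 subunits were put together, and BABAM2, SHLD2, UIMC1, BRCC3, RNF8, MAD2L2 and SHLD1 named, after their values were seen. ABRAXAS1 passed the threshold also with no filter (adjusted p = 0.0103), as did RNF168 (adjusted p = 0.0455), and these 2 also passed without any 1 of the 6 arrays. Without SALL4-sh replicate 2, where 3.56% of all genes were called, the other 10 called pathway genes missed it, and with the floor raised to 16 ABRAXAS1 did (adjusted p = 0.0927).

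**Figure D4:**
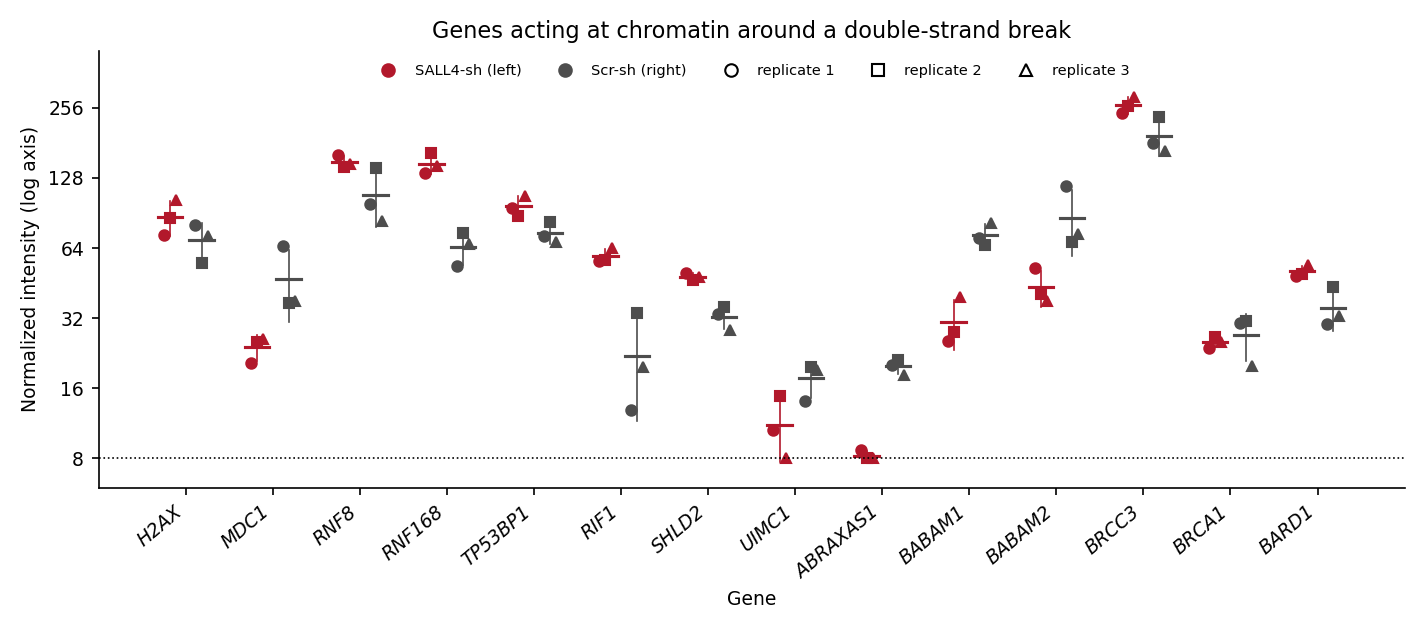
Normalized intensity (log axis) of genes acting at chromatin around a break, with SALL4-sh arrays on the left of each gene and Scr-sh arrays on the right. Points are single arrays, bars and whiskers are mean and SD (n = 3), and a dotted line marks the floor (8). MDC1, ABRAXAS1, BABAM1 and BABAM2 lie lower in SALL4-sh, RNF168, RIF1 and SHLD2 lie higher, and BRCA1 overlaps.

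RAD1, a subunit of the clamp that loads TOPBP1 at damage, rose to 99.5 ± 16.4 in SALL4-sh, against 49.3 ± 9.91 in Scr-sh (SD, n = 3 each, adjusted p = 0.0144), while its partners in the clamp missed the threshold, with log2 fold changes of 0.03 for RAD9A (adjusted p = 0.956) and 0.55 for HUS1 (adjusted p = 0.109). CLSPN, the adaptor through which ATR activates CHEK1, rose to 89.3 ± 20.1 in SALL4-sh, against 41.4 ± 15.0 in Scr-sh (SD, n = 3 each, adjusted p = 0.0273). MND1, which works with PSMC3IP in meiotic strand exchange, fell to 27.8 ± 3.86 in SALL4-sh, against 79.2 ± 24.0 in Scr-sh (SD, n = 3 each, adjusted p = 0.00543), while PSMC3IP stood at 1.08 on the log2 scale (adjusted p = 0.0523). EME1, the partner of the nuclease MUS81, fell to 13.8 ± 3.08 in SALL4-sh, against 23.3 ± 1.15 in Scr-sh (SD, n = 3 each, adjusted p = 0.0306). The remaining called genes were TIPIN, a fork protection protein, and DMC1, the meiotic recombinase. TIPIN rose (log2 fold change 0.99, adjusted p = 0.04998), while its partner TIMELESS missed the threshold (log2 fold change 0.54, adjusted p = 0.0825). DMC1 fell (log2 fold change -0.70, adjusted p = 0.0337) but lay near the floor, at 8.13 to 9.04 in SALL4-sh and 11.4 to 16.1 in Scr-sh. Neither TIPIN nor DMC1 was called with the floor raised to 16. RAD9A, HUS1, TIMELESS, PSMC3IP, TIPIN and DMC1 were named after their values were seen.

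Other branches of DNA repair were put through the same test. Of 10 genes of end joining, the competing route for broken ends, none passed the adjusted threshold of limma, none had an unadjusted p under 0.05, and their log2 fold changes ran from -0.29 to 0.33. Of 5 mismatch repair genes tested none passed either, 3 had an unadjusted p under 0.05, and their median log2 fold change was 0.52. Of 13 genes of nucleotide excision repair, DDB2 and GTF2H3 fell and none rose (15.4% called). Over all genes tested, 11.5% passed the adjusted threshold and 24.7% had an unadjusted p under 0.05. Whether these lists differ from the recombination genes or from all genes was not tested.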

How the data were processed

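RNA of 6 samples was hybridised to Affymetrix arrays. The authors deposited normalized intensity values on a linear scale, and the submitters' processing notes name RMA, without a version. Every deposited value below 8 stands at 8 (38.8% to 40.4% of the 32321 probe sets per array). The labels and the study's methods differ on the serum and on the RNA extraction. Log2 of the intensity was taken. Of the probe sets, 19158 had 1 gene symbol in the platform annotation, and RefSeq changed 0 of these symbols. The brightest probe set stood for a gene. Genes with a mean log2 intensity in the lowest 25% (an intensity of up to 8.28) were left out. Many of these had no spread, and limma's prior degrees of freedom fell to 0.422 with them, against 5.33 without. The test was limma's moderated fit (version 3.58.1, R 4.3.3, Benjamini-Hochberg adjustment, threshold 0.05). Its code was also run on simulated data with independent noise for each gene, and that outcome is not reported here. Alternatives were no filter, a 50% filter, other normalizations, weights, a one-way ANOVA, which the study names for its arrays, a floor of 16, a replicate block and 1 array left out. The number of arrays limits the precision.

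Values are given for genes past the threshold, 10 genes fixed by name, genes at the floor, the 2 nearest misses and up to 8 other pathway genes with the smallest adjusted p. The members, lists and alternatives were chosen with earlier results of these data known.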

Additional observations from a re-analysis of the deposited data

How the results depend on the processing

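The direction of CHEK2, MDC1, BRIP1 and FANCM was the same in all 17 alternatives. Most of these could not have reversed it. The groups of these genes did not overlap, so leaving out 1 array keeps the sign, and the filters, the ANOVA and the block leave the fold change as it was. SALL4 stayed past the threshold in all 17 alternatives, at log2 fold changes of -2.07 to -1.87. CHEK2 passed in 15, BRIP1 in 10, MDC1 in 9 and FANCM in 9. Among the repair genes, 0 rose and 0 fell with no filter and with the one-way ANOVA (8 at an unadjusted p under 0.05 in each, beside 17.4% of all genes with no filter and 20.2% with the ANOVA), and with the floor raised to 16, 0 rose and 1 fell. Among the other pathway genes, 1 rose and 1 fell with no filter, 0 rose and 1 fell with the one-way ANOVA, 3 fell with the floor raised to 16 (11.8% of all genes called), and 11 rose with array weights (15.3% of all genes called). The cause was not tested. Over all genes, 1585 were called, 462 with no filter, 257 with the one-way ANOVA and 491 to 1587 with 1 array left out. After cyclic loess 665 genes rose and 859 fell, against 821 and 764.

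With 1 array left out, 0 to 3 repair genes rose and 1 to 2 fell, and 1 to 11 other pathway genes rose and 1 to 5 fell. No repair gene rose without Scr-sh replicate 3 or without any 1 of the SALL4-sh arrays, and only CHEK2 fell without any 1 of the SALL4-sh arrays. MDC1 was not called without Scr-sh replicate 1 (adjusted p = 0.0795), and FANCM was not either (adjusted p = 0.0952). In that fit 6.55% of all genes were called. BRCA1, near 0, changed sign with array weights (0.041) and without Scr-sh replicate 1 (0.020) or 2 (0.031), and ranged from -0.29 to 0.031 with 1 array left out. ATR changed sign without Scr-sh replicate 1 (-0.12) and ranged from -0.12 to 0.36. With the replicate number as a block 2 repair genes rose and 3 fell, NBN (adjusted p = 0.0486) being the addition, and 1706 genes were called in all. The labels give no meaning to the number. Deviations of samples with the same number correlated at 0.144, 0.113 and -0.000886 for replicates 1, 2 and 3. For SALL4-sh replicates 1 and 2 the Scr-sh array of the same number had the highest correlation, and for replicate 3 it did not. Whether samples with the same number were handled together was not tested.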
